A study of Mus musculus with 20 samples.

Results

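The genes described here make up the machinery that docks, primes and fuses the insulin granule, together with the granins packed inside it. They are 46 genes, of 28632 in the count table: 8 SNARE proteins, 12 regulators of SNARE proteins, 7 synaptotagmins, 11 Rab GTPases and Rab effectors, and 8 granins and granule membrane proteins. Members were listed by gene name, with earlier results of these data known. All 46 were tested, since no filter on low counts was applied, and 45 averaged 100 or more normalized counts over the 20 libraries. The exception was Cplx1.

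Insulin is stored in dense-core granules, where granins such as chromogranin A condense with the hormone. Rab3 and Rab27 GTPases and their effectors hold granules at the plasma membrane, CAPS and Munc13 proteins prime them, and the SNARE proteins syntaxin, SNAP25 and VAMP2 pull granule and plasma membrane together. Synaptotagmins that bind calcium trigger the fusion, while others of the family, such as Syt13, do not bind it.

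RNAseq was done on islets of 12-week-old C57BL/6N mice of both sexes in 4 genotypes. The 6 Ctrl libraries carry the label wild type, while the study's methods pool animals with Ins1-Cre alone and animals with floxed alleles alone. In β-Mfn1KO (n = 4) and β-Mfn2KO (n = 5) the Ins1-Cre knock-in deleted floxed Mfn1 or floxed Mfn2, and in β-Mfn1/2DKO (n = 5) it deleted both, genes for the mitofusins that join mitochondrial outer membranes. Ins1-Cre acts in β-cells and the other cells of an islet keep both genes.

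Values are normalized counts, that is, gene counts scaled between libraries by TMM and given at the mean effective library size of 41.4 M. A gene counts as called where the quasi-likelihood p of edgeR, adjusted by Benjamini-Hochberg over all 28632 genes, is under 0.05, and SE is the standard error of the log2 change. Mfn1 stood at 621 to 770.4 in β-Mfn1KO and at 687 to 1062 in β-Mfn1/2DKO, below the Ctrl range of 1518 to 1807. Mfn2 stood at 1474 to 1688 in β-Mfn2KO and at 2022 to 2131 in β-Mfn1/2DKO, below the Ctrl range of 3089 to 4373. Totals were 12.4 to 20.3 M counts in Ctrl, 15.7 to 16.7 M in β-Mfn1KO, 15.1 to 59.5 M in β-Mfn2KO and 65.5 to 123 M in β-Mfn1/2DKO, so depth and the double knockout cannot be told apart except through β-Mfn2KO replicates 4 and 5, which are deep (above 40 M). The markers of the 10 lists, which cover β-cells, alpha cells, other islet cell types and acinar cells, were all in the count table. Genes at 0 in every library are absent from that table, so any marker found in it has counts in some library. Summed β-cell markers (Ins1, Ins2, Mafa, Ucn3 and 6 others) were 140867 to 219236 CPM (counts scaled to 1 common total) in Ctrl and 65671 to 96248 in β-Mfn1/2DKO, and 10 of 10 were called lower. Alpha cell markers (Gcg and 6 others) summed to 15038 to 49144 and 34874 to 54768 CPM, with 1 of 7 called. Acinar markers summed to 417 to 2320 CPM in Ctrl and to 650.1 to 58545 in β-Mfn1/2DKO, with 26 of 30 called higher and 1 lower. The sums in β-Mfn1/2DKO replicates 1 to 3 (650.1, 1061 and 654 CPM) lay within the Ctrl range. In β-Mfn1/2DKO replicates 4 and 5 the mean log2 CPM of these markers stood apart (7.04 and 8.63, against 0.148 to 5.87 in the other 18 libraries). Endothelial markers summed to 124 to 188 and 209 to 326 CPM, with 7 of 7 called higher. Of the other lists, duct cells had 3 of 6 higher, stellate cells 1 of 6 higher, Schwann cells 1 of 5 higher, macrophages 1 of 8 lower, and delta and PP cells 0 of 4 and 0 of 2 called. In bulk islets fewer β-cells and less RNA per β-cell cannot be told apart from the counts alone. The study reports that β-cell mass, measured in pancreas sections of younger mice, did not differ significantly among its genotypes. The share of β-cells in the islets sequenced here is not given, and the part of these marker shifts in the results below was not tested.

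In β-Mfn1/2DKO islets 25 of the 46 genes differed from Ctrl, 18 lower and 7 higher. Among all 28632 genes 6.86% were called lower and 9.59% higher (16.5% in all), and among the 12274 genes that averaged 100 or more normalized counts, which is the nearer comparison for these members, 14% were lower and 19.5% higher (33.6% in all). Sytl4, Syt5 and Scg3 fell by more than 1.5-fold and Cadps2 rose by more than 1.5-fold, 3 lower and 1 higher, against 2.67% lower and 4.77% higher among the 12274. The other 21 called members moved by less than that. The median log2 fold change of the 46 was −0.16, against 0.04 for the 15267 genes that the filterByExpr function keeps. Scaling by total counts in place of TMM moved that median of all kept genes to 0.17 and turned the split of calls to 14 higher and 10 lower, so the small changes below are changes relative to the other genes of the islet. With depth class (a total above or below 40 M counts) as a covariate 6 of the 25 calls remained and 19 were lost. The 6 were Sytl4, Syt5 and Scg3 lower and Cadps2, Syt9 and Stxbp5 higher. The shares of all genes called with total counts or with depth class are not given here, so these counts describe the members alone.

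Libraries of β-Mfn1/2DKO and Ctrl did not overlap for 13 members that were lower and 7 that were higher, against 8.59% and 12% of the 12274 genes. Of the 18 genes called lower, 15 were also called lower against β-Mfn2KO and 14 against β-Mfn1KO, and 13 in all of these comparisons, which share the β-Mfn1/2DKO libraries. Of the 7 called higher, these counts were 5, 4 and 2. The shares of all genes called against Ctrl that were also called in these comparisons were not worked out. The counts therefore describe the members alone. By role, granins and granule membrane proteins had 3 of 8 lower and 0 higher (median −0.30), Rab proteins and effectors 4 of 11 lower and 1 higher (median 0.03), synaptotagmins 3 of 7 lower and 1 higher (median −0.18), SNARE proteins 3 of 8 lower and 2 higher (median −0.04), and SNARE regulators 5 of 12 lower and 3 higher (median −0.10).

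**Figure D1:**
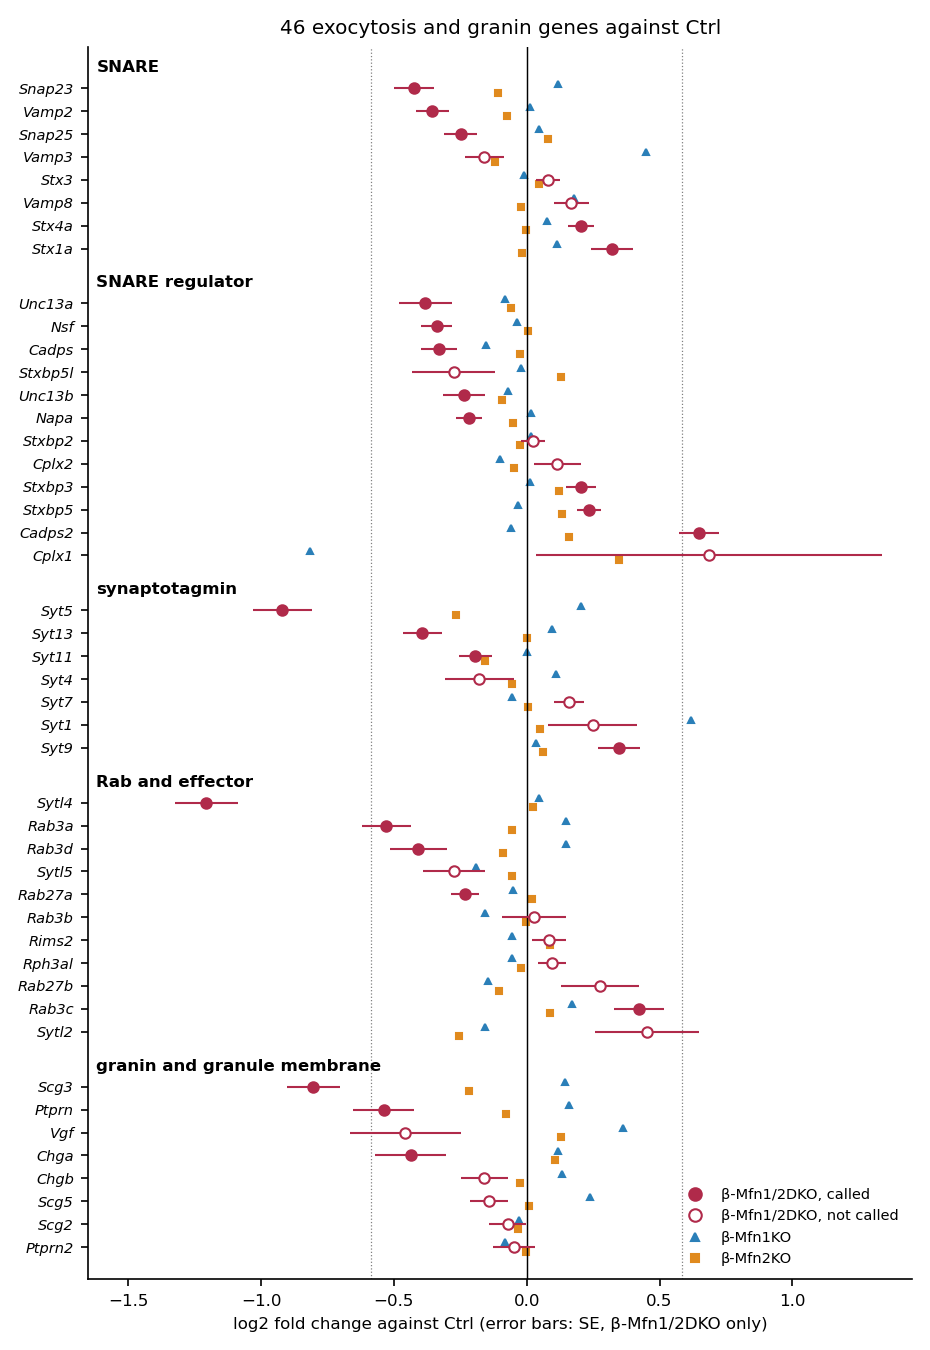
Log2 fold change against Ctrl (x axis) of the 46 genes, grouped by role, for β-Mfn1/2DKO (circles with SE, filled where called), β-Mfn1KO (triangles) and β-Mfn2KO (squares); dotted lines mark a fold of 1.5 either way. Sytl4 lies farthest to the left at −1.21, and 3 filled circles lie beyond the left line and 1, Cadps2, beyond the right one.

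**Figure D2:**
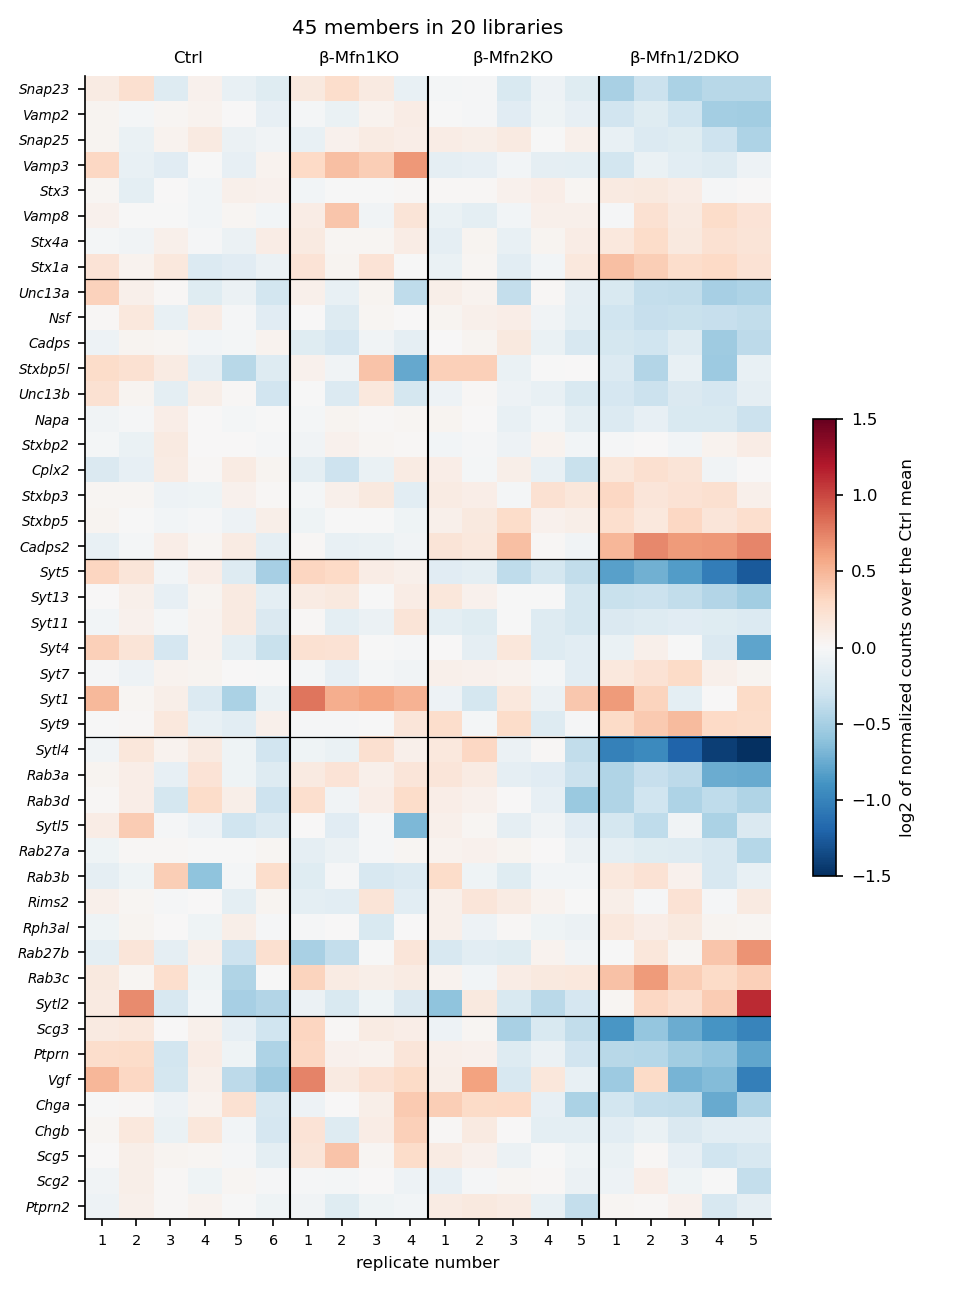
Normalized counts of 45 members (Cplx1 left out for its low counts) in each of 20 libraries, as log2 over the Ctrl mean, from blue (lower) to red (higher), with libraries as columns by genotype and replicate number and members as rows by role. The rows of Sytl4, Syt5 and Scg3 are blue across the 5 columns of β-Mfn1/2DKO, and that of Cadps2 is red.

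Levels of different genes were set side by side per length, as TPM, counts divided by the exon length of the gene and scaled to 1 common total per library. The granins led in Ctrl: Chga, which encodes chromogranin A, had 9933 ± 576 TPM (SD, n = 6), and Scg2, for secretogranin II, had 4659 ± 362. Chgb (chromogranin B) stood at 1803 ± 176, Scg5 (7B2, the chaperone of prohormone convertase PC2) at 1298 ± 97.5 and Scg3 (secretogranin III) at 811 ± 99.7. Ptprn (IA-2, a granule membrane protein) at 731 ± 136 and the synaptotagmin family member Syt13 at 715 ± 27.4 did not differ beyond their spread, nor did Ptprn and Scg3. Next came Cplx2 (complexin) at 449 ± 51.5 and Sytl4 at 279 ± 33.7. At the low end stood Cadps2 at 4.27 ± 0.338, Rab3c at 2.17 ± 0.432, Sytl2 at 1.21 ± 0.428, Rab27b at 0.971 ± 0.179, Syt1 at 0.966 ± 0.236 and Cplx1 at 0.783 ± 0.469, the last ones within their spread of each other.

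Windows of 250 bases before the RefSeq start site (GRCm38.p6) were found for 35 of the 46 genes and searched on both strands for 6 short motifs. The short CRE TGACG was in 16 of the 35 (45.7%, against 19.8% of all 27025 genes with a window), 8 of 14 called lower, 3 of 7 called higher and 5 of 14 not called. The full CRE TGACGTCA, which contains the short one, was in 3 of 35 (1.77% of all genes): Stxbp3, called higher, and Chgb and Scg2, not called. The GC box GGGCGG was in 24 of 35 (68.6%, against 35.4%), 9 of 14 called lower, 7 of 7 called higher and 8 of 14 not called. The E-box CACGTG was in 6 of 35 (17.1%, against 6.86%) and the TATA box TATAAA in 2 (14.3% of all genes), while the RE1 core TTCAGCACC was in 0 (0.348% of all genes). The 27025 genes were not limited to genes expressed in these islets, and the shares among expressed genes were not worked out. Matches are descriptions of the letters in these windows. The windows of Sytl4, Scg3 and Cadps2 are printed because these genes changed by more than 1.5-fold, all on the minus strand, 5′ to 3′, in lower case. Capitals mark the short CRE in Scg3 and the E-box in Cadps2, and the window of Sytl4 held none of the 6 motifs. The GC boxes of Cadps2 are left in lower case.
Sytl4, chrX:133981813-133982062, minus strand: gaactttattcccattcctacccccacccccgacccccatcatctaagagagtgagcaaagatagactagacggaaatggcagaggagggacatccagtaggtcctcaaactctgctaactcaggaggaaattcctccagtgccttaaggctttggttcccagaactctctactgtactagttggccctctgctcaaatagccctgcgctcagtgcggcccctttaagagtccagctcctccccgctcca
Scg3, chr9:75684057-75684306, minus strand: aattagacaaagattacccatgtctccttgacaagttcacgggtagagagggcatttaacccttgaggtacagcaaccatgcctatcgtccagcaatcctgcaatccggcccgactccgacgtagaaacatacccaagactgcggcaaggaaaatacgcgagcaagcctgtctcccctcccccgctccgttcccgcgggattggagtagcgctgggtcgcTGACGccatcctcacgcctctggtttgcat
Cadps2, chr6:23839422-23839671, minus strand: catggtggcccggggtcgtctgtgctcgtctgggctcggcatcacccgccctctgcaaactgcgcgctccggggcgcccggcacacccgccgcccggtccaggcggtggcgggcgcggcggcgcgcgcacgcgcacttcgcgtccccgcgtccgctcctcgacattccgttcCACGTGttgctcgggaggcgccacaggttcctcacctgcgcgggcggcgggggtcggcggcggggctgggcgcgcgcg

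The full CRE sites of the other genes are printed as 30 bases each, with the site in capitals, since Chgb and Scg2 are abundant granins that were not called.
Chgb, chr2:132781559-132781588, plus strand, 72 bases before the start: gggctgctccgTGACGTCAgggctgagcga
Scg2, chr1:79440076-79440105, minus strand, 68 bases before the start: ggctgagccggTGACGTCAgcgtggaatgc
Stxbp3, chr3:108840592-108840621, minus strand, 108 bases before the start: gttgatgcgcgTGACGTCAcctgagggcgc

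Among the granins Scg3 and Chga fell in β-Mfn1/2DKO, while Scg2, Chgb, Scg5 and Vgf were not called against Ctrl. Scg3 (ENSMUSG00000032181, chromosome 9, 75643189–75684056, GRCm38) binds chromogranin A and cholesterol-rich granule membrane. It stood at 30901, 39081 and 42466 normalized counts in Ctrl (lowest, median and highest of 6) and at 20788, 25471, 22719, 20593 and 19156 in the 5 β-Mfn1/2DKO libraries. In β-Mfn1KO it stood at 47549, 38365, 41211 and 40827, and in β-Mfn2KO at 35971, 38754, 27001, 32449 and 29298. Each β-Mfn1/2DKO value was below every library of the other genotypes, and the low β-Mfn2KO libraries 3 and 5 were below every Ctrl library. On the log2 scale the change was −0.80 (adjusted p = 5.7e-06, SE 0.10) against Ctrl, −0.59 (adjusted p = 0.00042) against β-Mfn2KO and −0.95 (adjusted p = 2.2e-06) against β-Mfn1KO.

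Chga is the most abundant of the 46 genes. Ctrl had 396554, 472045 and 549907, against 389514, 365662, 362879, 277497 and 340518 for β-Mfn1/2DKO, where every library was below every Ctrl library. The log2 fold change was −0.44 (adjusted p = 0.024, SE 0.13). In β-Mfn2KO it stood at 605764, 575312, 578949, 432778 and 339724, and the deep replicates 4 and 5 lay below the shallow ones, replicate 5 within the range of β-Mfn1/2DKO. With depth class as a covariate the sign turned, at 0.17 (adjusted p = 0.78), and without β-Mfn1/2DKO replicates 4 and 5, the libraries rich in acinar markers, it was −0.31 (adjusted p = 0.24). The call against Ctrl was also lost with total counts, −0.29 (adjusted p = 0.10), without Ctrl replicate 5 (−0.39, adjusted p = 0.062) and without β-Mfn1/2DKO replicate 4 (−0.34, adjusted p = 0.098).

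Ptprn, the IA-2 antigen of the granule membrane, stood at 38811, 54231 and 64804 in Ctrl, 66305, 55822, 55534 and 60486 in β-Mfn1KO, 56119, 55538, 46620.2, 50323 and 43699 in β-Mfn2KO and 39876, 39776, 37206, 35786 and 30990.0 in β-Mfn1/2DKO. The lowest Ctrl library overlapped β-Mfn1/2DKO, and no library of the single knockouts did. Its log2 fold change was −0.54 (adjusted p = 0.0019, SE 0.11) against Ctrl, while its paralog Ptprn2 (IA-2β) had −0.05 (adjusted p = 0.75). With depth class as a covariate Ptprn had −0.37 (adjusted p = 0.42).

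Scg2 was within 191040.0 to 212284 in Ctrl and 156729 to 214337 in β-Mfn1/2DKO, a log2 fold change of −0.07 (adjusted p = 0.56). For Chgb these ranges were 71059.9 to 95018 and 72601 to 78709, with −0.16 (adjusted p = 0.26). Both groups overlapped for each of these genes. Scg5 had −0.14 (adjusted p = 0.21) and Vgf, a granin-like neuropeptide precursor, −0.46 (adjusted p = 0.15). Against β-Mfn1KO, with a range of 35589 to 46938 for Scg5, Chgb (−0.29, adjusted p = 0.042), Scg5 (−0.38, adjusted p = 0.0015) and Vgf (−0.82, adjusted p = 0.014) were called lower. The 6 granins together took up 1.81 to 2.06% of a library's counts in Ctrl and 1.53 to 1.88% in β-Mfn1/2DKO, ranges that overlap.

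**Figure D3:**
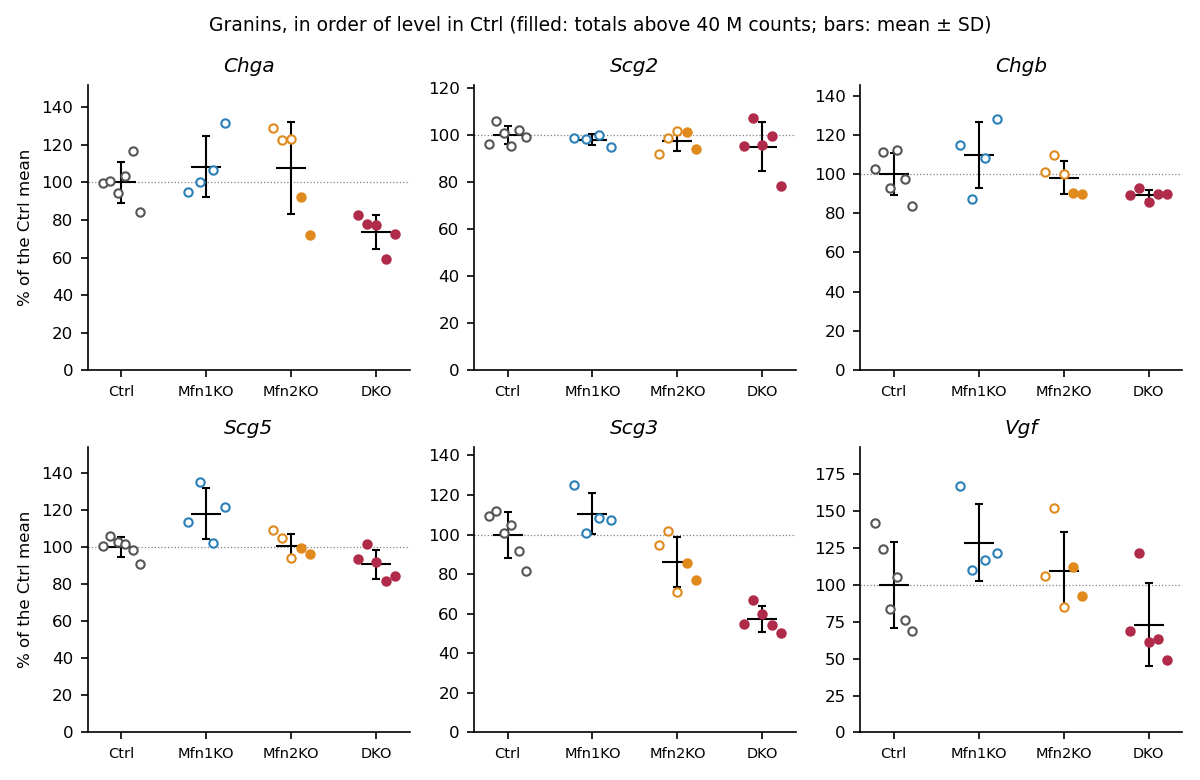
Normalized counts of 6 granins as a percent of the Ctrl mean (y axis, from 0) in Ctrl, β-Mfn1KO, β-Mfn2KO and β-Mfn1/2DKO (labelled DKO); points are libraries, filled where the total is above 40 M counts, and bars are mean ± SD. The 5 DKO points of Scg3 average 57.3% of Ctrl and stand apart, those of Scg2 average 95.1% and overlap Ctrl, and the 2 filled β-Mfn2KO points of Chga lie below the 3 open ones.

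Of the Rab proteins and effectors, Sytl4 fell most of all 46 genes. Sytl4 (ENSMUSG00000031255, chromosome X, 133936385–133981812) encodes granuphilin, the Rab27 effector that docks insulin granules at syntaxin. Ctrl had 20064, 24426 and 27607, and the double knockout had 12151, 12632, 10673, 9162 and 8416. In β-Mfn1KO it stood at 23439.6, 22874, 29015 and 25838, and in β-Mfn2KO at 27373, 30389, 23068, 24739.7 and 18881. Every β-Mfn1/2DKO library was below all 15 others, at 43.4% of the Ctrl mean, 48.3% in replicates 1 to 3 and 35.9% in replicates 4 and 5.

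The log2 fold change of Sytl4 was −1.21 (adjusted p = 3.3e-07, SE 0.12) against Ctrl, −1.23 (adjusted p = 8.8e-07) against β-Mfn2KO and −1.25 (adjusted p = 6.8e-07) against β-Mfn1KO. In β-Mfn1KO and β-Mfn2KO it was 0.05 and 0.02 against Ctrl, neither of them called. With depth class as a covariate it was −0.90 (adjusted p = 0.015), and among the deep libraries alone β-Mfn1/2DKO against β-Mfn2KO gave −0.99 (adjusted p = 0.013). Female libraries alone gave −1.02 and male libraries alone −1.30, both called.

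Rab3a, a GTPase of granules waiting at the plasma membrane, fell as well. It stood at 3007, 3416 and 3974 in Ctrl, 3774, 3959, 3621 and 3900.3 in β-Mfn1KO, 3916, 3755, 3134, 3050.4 and 2757 in β-Mfn2KO and 2508, 2711, 2616, 2050.1 and 2039.8 in the double knockout. No β-Mfn1/2DKO library reached a Ctrl library, and β-Mfn2KO replicate 5 came nearest to them from above. The log2 fold change was −0.53 (adjusted p = 0.00030, SE 0.09), or −0.22 (adjusted p = 0.56) with depth class as a covariate. Rab27a, the GTPase that granuphilin binds, stood at 11188 to 11958 in Ctrl and 8717 to 10526 in β-Mfn1/2DKO, that is −0.23 (adjusted p = 0.0033, SE 0.05), with no overlap. Its call was lost with total counts (−0.09, adjusted p = 0.37), without β-Mfn1/2DKO replicates 4 and 5 (−0.15, adjusted p = 0.081) and with depth class (−0.13, adjusted p = 0.58). Rab3d had −0.41 (adjusted p = 0.0093), with overlap, and −0.03 (adjusted p = 1) with depth class.

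Rab3c rose, from 326, 448 and 529 in Ctrl to 604, 691, 573, 544 and 570.1 in β-Mfn1/2DKO, with no overlap and a change of 0.42 (adjusted p = 0.0027, SE 0.09), or 0.31 (adjusted p = 0.43) with depth class. It is a low member, at 2.17 ± 0.432 TPM in Ctrl. The effector Sytl2 (Slp2) was not called against Ctrl but was against β-Mfn2KO, with 0.71 (adjusted p = 0.024). It stood at 189 to 319 in β-Mfn2KO and at 292, 356, 339, 374 and 622 in β-Mfn1/2DKO, where replicate 5 was well above the others. Rab3b, Rab27b, the scaffold Rims2, Sytl5 and Rph3al (Noc2) were not called against Ctrl, at log2 fold changes of −0.28 (Sytl5) to 0.28 (Rab27b).

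Of the synaptotagmins Syt5 and Syt13 fell and Syt9 rose, while the calcium sensor Syt7 was not called. Syt5 (ENSMUSG00000004961, chromosome 7, 4539765–4547541) encodes a calcium-binding synaptotagmin of dense-core granules. It stood at 2192, 3151 and 3852 in Ctrl, 3858, 3803, 3325 and 3263 in β-Mfn1KO, 2745, 2789.9, 2379.7, 2568 and 2387 in β-Mfn2KO and 1755, 1875, 1730.1, 1511 and 1293 in β-Mfn1/2DKO. Libraries of the double knockout were below every other library, and the β-Mfn2KO libraries lay within the range of Ctrl. The log2 fold change was −0.92 (adjusted p = 4.1e-06, SE 0.11) against Ctrl, −0.65 (adjusted p = 0.00041) against β-Mfn2KO and −1.12 (adjusted p = 1.1e-06) against β-Mfn1KO, and −0.83 (adjusted p = 0.026) against Ctrl with depth class as a covariate. In β-Mfn2KO against Ctrl it was −0.27 (adjusted p = 0.93).

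Syt13, an atypical synaptotagmin that does not bind calcium and the most abundant of the 7, stood at 41597, 46905 and 50602 in Ctrl and 36650.2, 36919, 35665, 34140.5 and 32250.4 in β-Mfn1/2DKO. Every β-Mfn1/2DKO library was below every library of the other genotypes. Its log2 fold change was −0.39 (adjusted p = 0.00047, SE 0.07), or −0.19 (adjusted p = 0.52) with depth class as a covariate. Syt9, a calcium sensor of insulin granules, stood at 769, 865 and 960.3 in Ctrl, 849 to 973 in β-Mfn1KO, 752 to 1042 in β-Mfn2KO and 1049, 1126, 1198, 1058 and 1043 in β-Mfn1/2DKO, which lay above every other library. Its log2 fold change was 0.35 (adjusted p = 0.0032, SE 0.08), and 0.63 (adjusted p = 0.0089) with depth class as a covariate. Syt11 had −0.19 (adjusted p = 0.036) with overlap, and its call was lost in 10 of the 20 fits that left out 1 library (without any β-Mfn1/2DKO library, Ctrl replicates 2, 4 or 5, or β-Mfn2KO replicates 3 or 5).

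Syt7, the other calcium sensor of insulin secretion, had 0.16 (adjusted p = 0.058) against Ctrl and 0.21 (adjusted p = 0.018) against β-Mfn1KO. Its values were 14949 to 16371 in Ctrl and 17592, 18279, 19292, 16587 and 16155 in β-Mfn1/2DKO, where replicates 4 and 5 were the lowest and without both the change was 0.24 (adjusted p = 0.0090). Syt4 had −0.18 (adjusted p = 0.43) and Syt1, at 99.1 to 192 in Ctrl, 0.25 (adjusted p = 0.38).

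Among the SNARE proteins Snap25, Snap23 and Vamp2 fell while Stx1a and Stx4a rose. Snap25 stood at 4590.2, 4911 and 5399 in Ctrl, 4575 to 5364 in β-Mfn1KO, 4927 to 5400.2 in β-Mfn2KO and 4562, 4294, 4333, 3978 and 3567 in β-Mfn1/2DKO, and Vamp2, the granule SNARE, at 8047, 8839.6 and 9092 in Ctrl and 7146, 7675, 7126, 6124 and 6091 in β-Mfn1/2DKO. Neither overlapped Ctrl. Their log2 fold changes were −0.25 (adjusted p = 0.0062, SE 0.06) and −0.36 (adjusted p = 0.00029, SE 0.06). Snap23, a relative of Snap25 found in most tissues, stood at 1744, 1972 and 2369 in Ctrl and 1425, 1594, 1440.1, 1499.9 and 1498 in β-Mfn1/2DKO, with no overlap and −0.42 (adjusted p = 0.00034, SE 0.08). Replicates 4 and 5 were the lowest β-Mfn1/2DKO libraries for Snap25 and Vamp2 but not for Snap23, and without both Snap25 had −0.14 (adjusted p = 0.16) and Vamp2 −0.23 (adjusted p = 0.011). With depth class as a covariate none of the SNARE calls remained, with −0.17 (adjusted p = 0.52) for Snap25, −0.32 (adjusted p = 0.16) for Vamp2 and −0.38 (adjusted p = 0.17) for Snap23, and total counts also ended that of Snap25 (−0.11, adjusted p = 0.36).

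Stx1a, the plasma membrane syntaxin that pairs with SNAP25, rose from 628, 717 and 837 in Ctrl to 991, 939, 872, 895 and 840.5 in β-Mfn1/2DKO. Each of these was above Ctrl, the nearest by a small margin, and 2 of the β-Mfn1KO libraries stood at the top of the Ctrl range. This gave a change of 0.32 (adjusted p = 0.0055, SE 0.08). Stx4a, a syntaxin of sustained insulin release, had 0.20 (adjusted p = 0.0057, SE 0.05) with no overlap, from 2043 to 2332 in Ctrl to 2405 to 2627. Depth class as a covariate gave 0.19 (adjusted p = 0.61) for Stx1a and 0.06 (adjusted p = 0.86) for Stx4a. Stx3 (0.08, adjusted p = 0.27) and Vamp8 (0.17, adjusted p = 0.095), SNARE proteins of newcomer granules, were not called, and both were called higher with total counts (0.22, adjusted p = 0.0069, and 0.31, adjusted p = 0.0021).

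Vamp3 (cellubrevin) was the one member called in a single knockout. It stood at 3076, 2297, 2200.2, 2466, 2273 and 2562 in Ctrl replicates 1 to 6, at 3048, 3393, 3214 and 3878 in β-Mfn1KO, at 2239 to 2407 in β-Mfn2KO and at 2043 to 2349 in β-Mfn1/2DKO. Ctrl replicate 1 lay within the range of β-Mfn1KO, and the other 5 Ctrl libraries lay below that range. Of these, replicates 4 and 6 (2466 and 2562) were above every β-Mfn2KO and β-Mfn1/2DKO library. On the log2 scale β-Mfn1KO was at 0.45 (adjusted p = 0.030, SE 0.08) against Ctrl, and 0.52 (adjusted p = 0.00024) without Ctrl replicate 1. The call was lost without any one of Ctrl replicates 2 to 5 or of β-Mfn1KO replicates 2 and 4, with log2 fold changes of 0.38 to 0.45 and adjusted p of 0.083 to 0.26. Vamp3 lies on chromosome 4, 3.14 Mb from Mfn2. Of 68 genes that averaged 100 or more normalized counts within 5 Mb of Mfn2, 15 (22.1%) had β-Mfn1KO apart from Ctrl replicates 2 to 6, with Ctrl replicate 1 on the β-Mfn1KO side in 15 of 15. Among the 12206 other genes 341 (2.79%) did so, with Ctrl replicate 1 on that side in 202 (59.2%). Ctrl replicate 1 is set apart here as it was for Vamp3 above, and Vamp3 itself meets this rule. These shares are therefore no separate test, and the part of position in the call was not tested.

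The priming factors of the CAPS family went in opposite directions. Cadps2 (ENSMUSG00000017978, chromosome 6, 23262773–23839421) stood at 638, 698 and 761 in Ctrl, 709, 649, 651 and 676 in β-Mfn1KO, 801, 782, 956, 708 and 675 in β-Mfn2KO and 987, 1150.1, 1084, 1097 and 1163 in β-Mfn1/2DKO. The last group was above all others. The change was 0.65 (adjusted p = 2.8e-06, SE 0.08) against Ctrl, 0.49 (adjusted p = 0.00016) against β-Mfn2KO and 0.71 (adjusted p = 4.4e-06) against β-Mfn1KO, and 0.94 (adjusted p = 8.0e-05) against Ctrl with depth class as a covariate. Cadps, the more abundant paralog, stood at 8388, 8835 and 9168 in Ctrl, 7749, 7410.1, 8508 and 8017 in β-Mfn1KO, 8824, 9079.9, 9777, 8211 and 7444 in β-Mfn2KO and 7335, 7181, 7695, 6108 and 6733 in β-Mfn1/2DKO. It did not overlap Ctrl and had −0.33 (adjusted p = 0.0012, SE 0.07), but overlapped both single knockouts. Unlike that of Cadps2, its call was lost with depth class, −0.09 (adjusted p = 0.79), and with total counts, −0.19 (adjusted p = 0.077).

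Counts of Cadps2 came to 7.94 ± 0.663% of those of Cadps in Ctrl (SD, n = 6), with a range of 6.96 to 8.81%. The range was 7.65 to 9.15% in β-Mfn1KO, 8.61 to 9.77% in β-Mfn2KO and 13.5 to 18.0% in β-Mfn1/2DKO. This ratio is taken within a library, and it does not change with the scaling between libraries. No β-Mfn1/2DKO library overlapped another genotype, the deep β-Mfn2KO libraries included (8.62 and 9.07%).

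Nsf and Napa (α-SNAP), which take spent SNARE complexes apart, both fell. Nsf stood at 3807, 4282 and 4778 in Ctrl and 3487, 3392, 3399.9, 3370.5 and 3317 in β-Mfn1/2DKO, with no overlap and −0.34 (adjusted p = 0.00032, SE 0.06). Napa had −0.22 (adjusted p = 0.0029, SE 0.05), with ranges of 8929 to 9938 and 7433 to 8540.2. Both calls were lost with depth class, −0.17 (adjusted p = 0.48) for Nsf and −0.15 (adjusted p = 0.47) for Napa, and that of Napa also with total counts (−0.08, adjusted p = 0.38) and without β-Mfn1/2DKO replicates 4 and 5 (−0.16, adjusted p = 0.068). The Munc13 primers Unc13a (−0.38, adjusted p = 0.0098) and Unc13b (−0.24, adjusted p = 0.042) were lower with overlap, and the call of Unc13b was lost in 11 of the 20 fits that left out 1 library (without any one of Ctrl replicates 1, 2, 4 and 5, β-Mfn2KO replicates 3 to 5 or β-Mfn1/2DKO replicates 1 to 4). Unc13a is also uncertain, since 495 exon bases overlap Colgalt1 on the opposite strand, which had 77.0% as many counts, and whether counting used strand is not given in the sources used here.

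Stxbp3 (Munc18c), the partner of syntaxin 4, and Stxbp5 (tomosyn), which blocks SNARE assembly, rose. They had 0.21 (adjusted p = 0.013, SE 0.06) and 0.23 (adjusted p = 0.00083, SE 0.05), and neither overlapped Ctrl. Stxbp5 stood at 2323, 2418 and 2603 in Ctrl and 2916, 2730.3, 3035, 2765 and 2923 in β-Mfn1/2DKO, and kept its call with depth class as a covariate, 0.33 (adjusted p = 0.031). In β-Mfn2KO Stxbp5 stood at 2552 to 2961, which overlapped β-Mfn1/2DKO. Neither gene was called in β-Mfn1/2DKO against β-Mfn2KO, with 0.10 (adjusted p = 0.17) for Stxbp5 and 0.08 (adjusted p = 0.39) for Stxbp3. The call of Stxbp3 was lost with the authors' normalization factors, 0.13 (adjusted p = 0.50), and with depth class, 0.07 (adjusted p = 0.85). Cplx2 (0.11, adjusted p = 0.46), Stxbp2 (0.02, adjusted p = 0.79), Stxbp5l (−0.27, adjusted p = 0.27) and Cplx1 (0.69, adjusted p = 0.56, at 0 to 139 normalized counts) were not called.

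**Figure D4:**
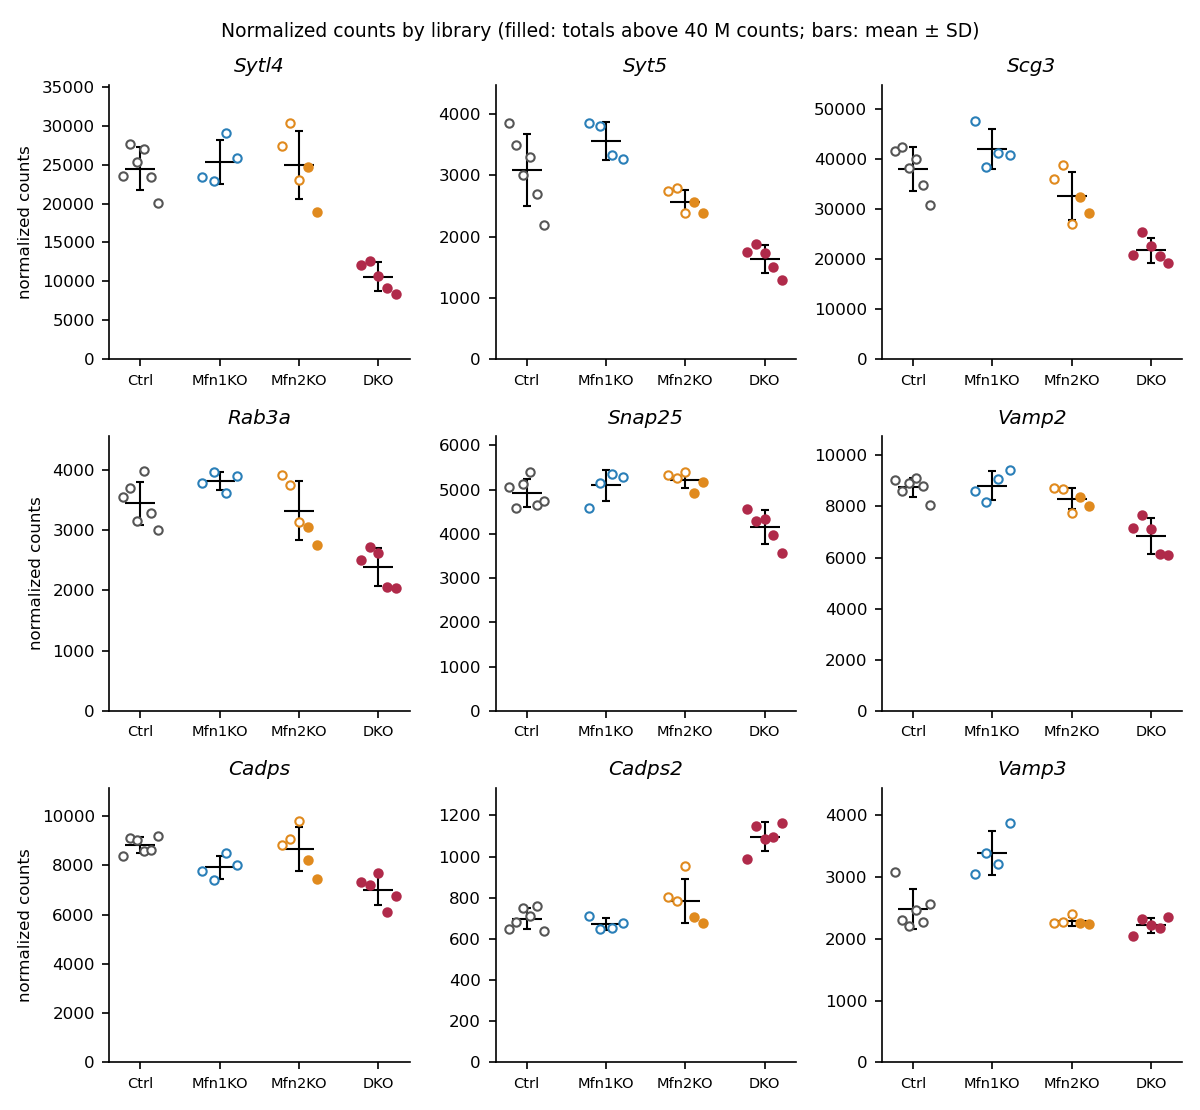
Normalized counts (y axes, from 0) of 9 members in Ctrl, β-Mfn1KO, β-Mfn2KO and β-Mfn1/2DKO (labelled DKO); points are libraries, filled where the total is above 40 M counts, and bars are mean ± SD. The 5 DKO points of Sytl4, Syt5, Scg3 and Snap25 lie below all others, those of Cadps2 above, and 1 Ctrl point of Vamp3 (3076) lies with the 4 points of β-Mfn1KO (3048 to 3878).

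In the single knockouts the genes stayed near Ctrl, with at most 1 call. In β-Mfn2KO 0 of 46 were called (5 at an unadjusted p under 0.05, and 0 called with DESeq2), against 0.0559% of all 28632 genes and 0.122% of the 12274 that averaged 100 or more. The median log2 fold change was −0.02, and the range was −0.27 (Syt5) to 0.35 (Cplx1). In β-Mfn1KO 1 of 46 was called, Vamp3 (5 at an unadjusted p under 0.05), against 0.0279% of all genes, 0.057% of the 12274 and 0.0163% of these in the higher direction. The median was 0.01, and the range was −0.82 (Cplx1) to 0.62 (Syt1, adjusted p = 0.51).

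Set against the single knockouts, the double knockout differed in 21 and 23 of the 46 genes. Against β-Mfn2KO 6 of 46 were higher and 15 lower (14.9% and 11.7% of the 12274), and 4 changed by more than 1.5-fold (5.26%): Sytl4, Syt5 and Scg3 lower and Sytl2 higher. Cadps2 had 0.49 (adjusted p = 0.00016, SE 0.08) there. Against β-Mfn1KO 5 were higher and 18 lower (19.3% and 15.9%), and 8 changed by more than 1.5-fold (10.3%), with Cadps2 higher and Sytl4, Syt5, Scg3, Vgf, Ptprn, Rab3a and Vamp3 lower. Scg3 had −0.95 (adjusted p = 2.2e-06, SE 0.11) in that comparison.

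The interaction term asks whether the log2 fold change of the double knockout differs from the sum of the 2 single ones, all against the same Ctrl. It was below 0 for 12 members and above 0 for 1 (6.65% and 6.15% of the 12274 genes), with 6 past 1.5-fold (5.39%). The 6 were Sytl4 at −1.28 (adjusted p = 0.00020, SE 0.17), Syt5 at −0.86 (adjusted p = 0.0025, SE 0.16), Scg3 at −0.73 (adjusted p = 0.0037, SE 0.15), Chga at −0.66 (adjusted p = 0.046, SE 0.20), Rab3a at −0.62 (adjusted p = 0.0079, SE 0.14) and Ptprn at −0.62 (adjusted p = 0.031, SE 0.17). Syt13, Vamp3, Snap23, Scg5, Snap25 and Nsf followed, from −0.49 to −0.31, and Cadps2 was the one above 0, at 0.55 (adjusted p = 0.0055, SE 0.12). Scg5 and Vamp3 had a term below 0 with no call against Ctrl in the double knockout, and of these Vamp3 was called higher in β-Mfn1KO while Scg5 was not (0.24, adjusted p = 0.56). Depth class as a covariate left 5 of the 13 calls (Sytl4, Syt5, Scg3, Vamp3 and Cadps2), and Chga had −0.27 (adjusted p = 0.52). Without β-Mfn1/2DKO replicates 4 and 5 the term was called for 8 members, 7 of them among the 13, and Chga had −0.54 (adjusted p = 0.20). The shares of all genes called in these fits are not given here.

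All β-Mfn1/2DKO libraries were deep and all Ctrl libraries shallow, so the 46 genes were also compared within β-Mfn2KO, which holds 2 deep and 3 shallow libraries. The mean of the deep libraries was below that of the shallow ones for 18 of the 18 genes called lower in β-Mfn1/2DKO. The median was 91.3%, while that of β-Mfn1/2DKO over Ctrl for the same genes was 76.5%. The latter comparison is the one that picked these genes, so these medians are not on equal terms. Most members not called also had a deep mean below the shallow one, such as Ptprn2 at 78.1%, and the rest lay above it, such as Vamp8 at 112%. Lower deep means were thus not particular to the genes called lower. The share of all genes with a lower deep mean was not worked out. For the 7 called higher the deep mean was above the shallow one in 4. The deep mean came to 80.9% of the shallow one for Sytl4, 91.0% for Scg3, 93.9% for Syt5, 81.7% for Cadps2 and 65.8% for Chga. Both deep β-Mfn2KO libraries are from males and 2 of the 3 shallow ones from females, so depth and sex cannot be told apart there.

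In every β-Mfn1/2DKO library 12 of the 18 lower genes were below both deep β-Mfn2KO libraries, and 6 of the 7 higher genes were above both. Among the 12274 genes the same held for 71.8% of the 1721 called lower against Ctrl and 70.2% of the 2397 called higher, so the members' shares are near those of other called genes. Among the deep libraries alone, β-Mfn1/2DKO against β-Mfn2KO gave 4 calls, Sytl4 at −0.99 (adjusted p = 0.013), Syt5 at −0.55 (adjusted p = 0.040), Cadps2 at 0.71 (adjusted p = 0.0018) and Syt9 at 0.50 (adjusted p = 0.012), with 2 deep β-Mfn2KO libraries. Scg3 had −0.46 (adjusted p = 0.057) there. The share of all genes called in that fit is not given here. For 14 of the 18 lower genes the lowest β-Mfn1/2DKO libraries were replicates 4 and 5, which carry the most acinar RNA. The mean of replicates 1 to 3 was below Ctrl for 18 of 18, and above it for 7 of 7 of the higher genes. The calls were made with replicates 1 to 3 included, so these signs are no separate test. Of the 25 calls against Ctrl 17 remained without β-Mfn1/2DKO replicates 4 and 5. With the acinar score of each library as a covariate 24 of the 25 remained. The shares of all genes that kept their call in these fits are not given here, and the former fit has fewer libraries. These counts describe the members alone, and the part of acinar RNA in the calls was not tested.

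**Figure D5:**
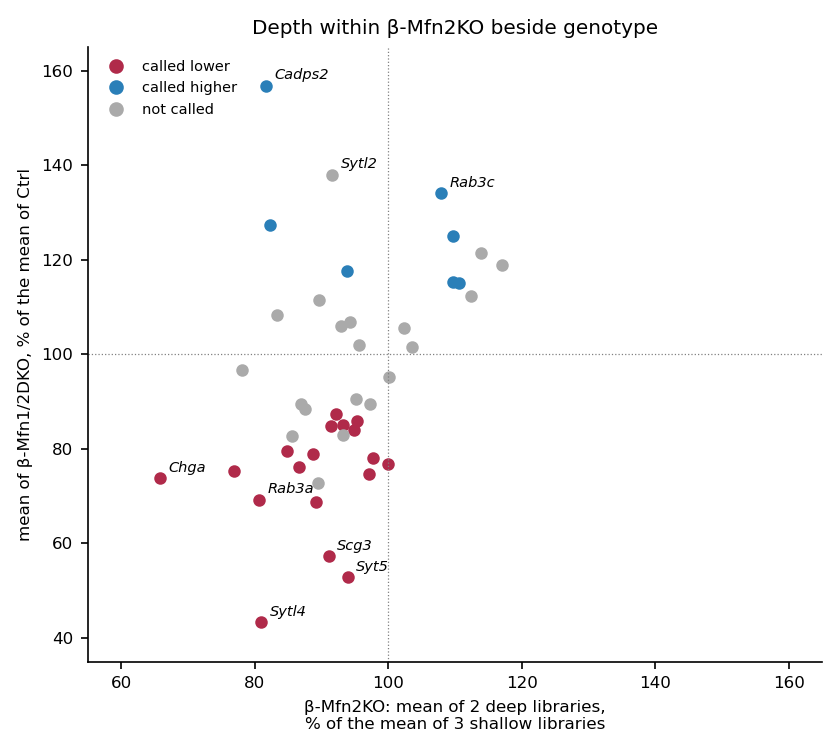
For 45 members (Cplx1 left out), the mean of the 2 deep β-Mfn2KO libraries as a percent of the mean of the 3 shallow ones (x axis) and the β-Mfn1/2DKO mean as a percent of the Ctrl mean (y axis); red points were called lower in β-Mfn1/2DKO, blue ones higher and grey ones not called, and dotted lines mark 100%. Red points lie below 100% on both axes, with Chga (65.8%) farthest to the left and Sytl4, Syt5 and Scg3 lowest, while Cadps2 lies high on the y axis at 81.7% on the x axis.

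Of 141 other genes of the secretory granule pathway, 14 were higher and 28 lower in β-Mfn1/2DKO against Ctrl, with a median log2 fold change of −0.02. The 120 of them that averaged 100 or more normalized counts had 10.8% higher and 23.3% lower (34.2% in all), against 19.5% and 14% (33.6% in all) of the 12274, so the total is near that of other genes. Of the 141, 0 were called in β-Mfn2KO or β-Mfn1KO with edgeR (5 and 16 at an unadjusted p under 0.05, and 0 and 0 called with DESeq2). Granule biogenesis had 4 of 32 higher and 11 lower (median −0.15), other Rab effectors and active zone proteins 2 of 47 higher and 10 lower (median −0.03), other SNARE proteins and partners 4 of 34 higher and 5 lower (median −0.01), other synaptotagmins 1 of 13 higher and 2 lower (median 0.14), and the exocyst, which tethers vesicles before fusion, 3 of 15 higher and 0 lower (median 0.01).

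Past 1.5-fold were 6 of these genes. Pcsk1, the prohormone convertase that begins the cleavage of proinsulin, went from 28046 ± 5783 in Ctrl to 14328 ± 2325 in β-Mfn1/2DKO (SD, n = 6 and n = 5), or −0.97 (SE 0.14, adjusted p = 2.4e-05) on the log2 scale. Exph5 (Slac2-b), another Rab27 effector, went from 2086 ± 84.2 in Ctrl to 1339 ± 106 in β-Mfn1/2DKO, or −0.64 (SE 0.09, adjusted p = 2.2e-05). Syp (synaptophysin), a membrane protein of small vesicles, had −0.60 (SE 0.09, adjusted p = 9.5e-05), and Hid1, a Golgi protein of granule formation, −0.60 (SE 0.11, adjusted p = 0.00061). Of the higher genes, Doc2a was low, at 11.4 ± 6.19 in Ctrl to 29.2 ± 9.70 in β-Mfn1/2DKO, with 1.31 (SE 0.35, adjusted p = 0.010), and Syt12 had 0.82 (SE 0.22, adjusted p = 0.011), or 0.077 as its adjusted p without β-Mfn1/2DKO replicates 4 and 5. All of the 6 lost their call with depth class as a covariate.

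Some counts rest on shared sequence. Rab3a shares 29 exon bases on the opposite strand with Mpv17l2, which had 27.0% as many counts, and 7.76% of the 75-base stretches of Stxbp3 also occur in the pseudogene Stxbp3-ps. Cplx1 was the one member with a mean under 100 normalized counts, and its β-Mfn1/2DKO replicate 1, at 139, was far above the 8.10 to 37.3 of the other β-Mfn1/2DKO libraries. Beside these, all 46 members passed filterByExpr, and no filter was applied before the test.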

How the data were processed

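Islets of 20 mice in 4 genotypes, taken from the labels, gave 1 RNAseq library each. Per the submitters' processing notes and the study's methods, the authors used cutadapt 2.3 and FastQC 0.11.8, mapped reads to GRCm38 with STAR 2.6.1b, estimated gene counts with RSEM 1.3.1 and normalized them with DESeq2 1.26.0. The deposited table of counts holds whole numbers with no normalization, and genes at 0 in every library are absent from it. A second deposited table holds a signal that the authors made by dividing counts by normalization factors that vary between genes, and it served only to recover those factors for an alternative. Whether counting used strand is not given in the sources used here.

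Counts of all 28632 genes were fitted with the quasi-likelihood test of edgeR 4.0.16 (limma 3.58.1, R 4.3.3) on 4 groups, with TMM scaling, no covariate, no filter on low counts and Benjamini-Hochberg adjustment over all genes. A gene ID had no match in the annotation in 53 cases. Totals of 12.4 to 123 M counts set the counting precision, and p-values measure the spread between these libraries. Alternatives were DESeq2 1.42.0 and its size factors, total counts, filterByExpr, the compared groups alone, sex, replicate number, acinar score and depth class as terms, counts drawn down to the smallest total, a fold change over 1.5, and fits without each library or without β-Mfn1/2DKO replicates 4 and 5. The authors' factors, each sex alone and the deep libraries alone were added after the data had been seen. The work used Python 3.11.15, pandas 2.3.3, NumPy 2.4.6 and Matplotlib 3.10.9.

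The 46 members, the 5 lists of 141 other pathway genes and the 10 lists of cell type markers were chosen with earlier results of these data known. Any member could be named, with full statistics where called, and of the other pathway genes up to 6 per direction with the smallest adjusted p among those called with a fold change over 1.5. Promoter windows come from RefSeq on GRCm38.p6.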

Additional observations from a re-analysis of the deposited data

Results flagged for a closer look

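A library far from the others of its genotype was found in 11 of 184 combinations of member and genotype, by the ratio of its gap to the range of the group (Dixon's test), and chance gives about 1 in 20 groups. In β-Mfn1KO, Nsf stood at 3753 in replicate 2 (others 4296 to 4396), Ptprn2 at 23869 in replicate 2 (25898 to 26259.5), Rims2 at 2411 in replicate 3 (1881 to 1904), Rph3al at 5618 in replicate 3 (6473 to 6599), Syt9 at 973 in replicate 4 (849 to 854) and Rab3c at 561 in replicate 1 (474 to 484). In β-Mfn2KO, Vamp3 stood at 2407 in replicate 3 (2239 to 2269) and Rab3b at 1264 in replicate 1 (923 to 1015). In β-Mfn1/2DKO, Cplx1 stood at 139 in replicate 1 (8.10 to 37.3), Vgf at 4563 in replicate 2 (1843 to 2569) and Sytl2 at 622 in replicate 5 (292 to 374).

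The effect of losing Mfn1 differed with and without Mfn2 for 13 members in edgeR's interaction term. The log2 differences were −1.28 for Sytl4, −0.86 for Syt5, −0.73 for Scg3, −0.66 for Chga, −0.62 for Rab3a, −0.62 for Ptprn, −0.49 for Syt13, −0.49 for Vamp3, −0.43 for Snap23, −0.39 for Scg5, −0.38 for Snap25, −0.31 for Nsf and 0.55 for Cadps2. For Vamp3 the β-Mfn1KO libraries stood above Ctrl replicates 2 to 6, while the β-Mfn1/2DKO libraries overlapped β-Mfn2KO. Of the 13 calls 5 remained with depth class as a covariate and 7 without β-Mfn1/2DKO replicates 4 and 5. Depth and the double knockout cannot be told apart in this term except through the 2 deep β-Mfn2KO libraries.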

How the results depend on the processing

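Of the 25 calls in β-Mfn1/2DKO against Ctrl, 25 kept their direction and their side of the threshold with DESeq2, its size factors, filterByExpr, sex or the replicate number as a term, and 22 to 24 with the authors' factors in edgeR or DESeq2, the acinar score, counts drawn down or the compared groups alone. Depth class left 6 (3 higher and 3 lower), male libraries alone gave 12 (4 and 8), a fold change over 1.5 gave 4, and the sign of Chga was reversed with depth class, at 0.17. The cause was not tested. Depth class and the double knockout can be told apart only through the 2 deep β-Mfn2KO libraries. The shares of all genes called under these alternatives are not given here. Total counts lost Napa, Chga, Snap25, Unc13b, Rab27a, Unc13a, Cadps and Syt11 and gave 14 higher and 10 lower, 58.3% higher against 28% with TMM. Without β-Mfn1/2DKO replicates 4 and 5 Napa, Rab3d, Chga, Snap25, Unc13b, Rab27a, Unc13a and Syt11 were lost. Sytl4, Syt5, Scg3 and Cadps2 stayed called in 35 of 35 alternatives each.

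Against β-Mfn2KO (21 calls) depth class gave 7, the deep libraries alone 4, male libraries alone 7 and the fold threshold 4. Against β-Mfn1KO (23) depth class gave 9 and the fold threshold 8. The interaction (13) had 5 with depth class, 8 without β-Mfn1/2DKO replicates 4 and 5 and 6 with the fold threshold. In β-Mfn1KO against Ctrl the 1 call became 0 with total counts, the compared groups alone, the authors' factors in edgeR and the fold threshold. With single libraries left out, the counts were 22 to 25 against Ctrl, 17 to 22 against β-Mfn2KO, 20 to 24 against β-Mfn1KO, 9 to 14 for the interaction, 0 for β-Mfn2KO and 0 to 1 for β-Mfn1KO, and 477 of 500 refits of single members kept the call.

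Replicate numbers are shared between genotypes, but the labels do not say what they stand for. Of 27 pairs of libraries with the same number 16 had deviations correlated above 0.1 (range −0.126 to 0.333), and 9 of 20 libraries correlated best with their own number. With the replicate number as a block the counts were 27, 24, 22 and 12 for β-Mfn1/2DKO against Ctrl, β-Mfn2KO and β-Mfn1KO and for the interaction, 1 (Syt5, −0.33, adjusted p = 0.018) for β-Mfn2KO against Ctrl and 0 for β-Mfn1KO against Ctrl, where Vamp3 lost its call.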
